A study of Danio rerio with 6 samples.

Results

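The rod photoreceptor genes *rho*, *gnat1*, *pde6b*, *saga* and *nr2e3* were followed in zebrafish retinas. They were taken by their Ensembl identifiers, and all 5 were present among the 25190 genes of the count table and the 32264 genes of the FPKM table. RNA-Seq was run on 3 samples of retina homozygous for the w59 allele of *pde6c* and 3 samples of WT retina at 5 dpf. Each sample was a pool of 3 retinas dissected from 3 dark-adapted larvae, and its RNA was amplified before sequencing. The mutant larvae came from crosses of heterozygous parents and the WT larvae from crosses of genotyped WT siblings of those parents, so parentage and the mutation cannot be told apart. The *pde6c* samples are called PR1, PR2 and PR3, and the WT samples WR1, WR2 and WR3.

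Rods are the photoreceptors of dim light. Light activates rhodopsin, the opsin encoded by *rho*, which switches on rod transducin, whose alpha subunit is encoded by *gnat1*; transducin then releases the phosphodiesterase that contains the product of *pde6b*, cyclic GMP falls and the channels of the outer segment close. Arrestin, encoded by *saga*, binds activated rhodopsin and ends the response, and Nr2e3 is a nuclear receptor that in mouse promotes rod genes and represses cone genes. Cones run the same cascade with their own opsins, their own transducin (*gnat2*) and their own phosphodiesterase, whose catalytic subunit is encoded by *pde6c*, the gene mutated in this line. The comparison of *pde6c* with WT retinas therefore asks what the level of rod transcripts was in a retina whose mutation lies in a cone gene.

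Between 18757605 and 22510222 fragments were counted on genes per sample. Counts were normalized by edgeR's TMM method and are given as CPM (the count of a gene relative to the normalized library size). As a check of the labels, the mutated gene *pde6c* was listed at 60.1, 140.2 and 84.8 FPKM in the PR libraries, against 445, 655 and 520.0 FPKM in the WR libraries. It had no count in any library, since its span lies within that of a larger gene and fragments on more than 1 gene were left out of the counting. None of the 5 rod genes overlaps another gene of the table. One summary table of the study and the names of the data columns give the genotypes opposite ways, and the directions below follow the column names, which match the sample labels.

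Rhodopsin RNA was the most abundant of the 5. *rho* (ENSDARG00000002193, GRCz10 chromosome 8, 53668767 to 53670321) had 489.6, 734 and 564 CPM in PR1, PR2 and PR3, against 1169.7, 732 and 860.4 CPM in WR1, WR2 and WR3. PR2 lay just above WR2, so the genotypes overlapped by this single pair. The means were 596 ± 125 CPM in *pde6c* and 921 ± 225 CPM in WT (SD, n = 3 each). In edgeR's quasi-likelihood test the log2 fold change was -0.63 with a standard error of 0.18, a level of 64.7% of WT. The Benjamini-Hochberg adjusted p of this edgeR test over all genes tested was 0.0929. It was under 0.1, the threshold that the study applied to DESeq2's Wald test.

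The rod transducin gene fell furthest. *gnat1* (ENSDARG00000044199, chromosome 6, 42921397 to 42932766) had 298, 353 and 333 CPM in the *pde6c* samples and 768, 542 and 531 CPM in the WT samples. Every *pde6c* sample was below every WT sample. The means were 328 ± 28.2 CPM in *pde6c* and 614 ± 134 CPM in WT, and the log2 fold change was -0.90 with a standard error of 0.16 (53.4% of WT, edgeR adjusted p = 0.00367).

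For the effector, *pde6b* (ENSDARG00000011671, chromosome 21, 20319822 to 20339971), the *pde6c* samples had 83.7, 146 and 119 CPM and the WT samples 219, 126 and 151 CPM. PR2 was above WR2 and close to WR3, and the genotypes overlapped. The log2 fold change was -0.51 with a standard error of 0.22, and it did not pass the test (edgeR unadjusted p = 0.0368, adjusted p = 0.365).

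The rod arrestin gene *saga* (ENSDARG00000012610, chromosome 2, 5568243 to 5593212) had 147, 235 and 208 CPM in *pde6c*, against 343, 297 and 279 CPM in WT. The genotypes did not overlap. The means were 197 ± 44.8 CPM in *pde6c* and 306 ± 33.2 CPM in WT, and *saga* fell with a log2 fold change of -0.64 and a standard error of 0.18 (64.2% of WT, edgeR adjusted p = 0.0700).

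The transcription factor gene behaved differently from sample to sample. *nr2e3* (ENSDARG00000045904, chromosome 25, 22177094 to 22181107) had 49.1, 27.8 and 50.7 CPM in the *pde6c* samples and 83.9, 50.7 and 49.0 CPM in the WT samples. PR2 stood below and WR1 above the other 4 samples, which lay between 49.0 and 50.7 CPM. The log2 fold change of -0.53 with a standard error of 0.26 did not pass the test (edgeR adjusted p = 0.462).

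**Figure D1:**
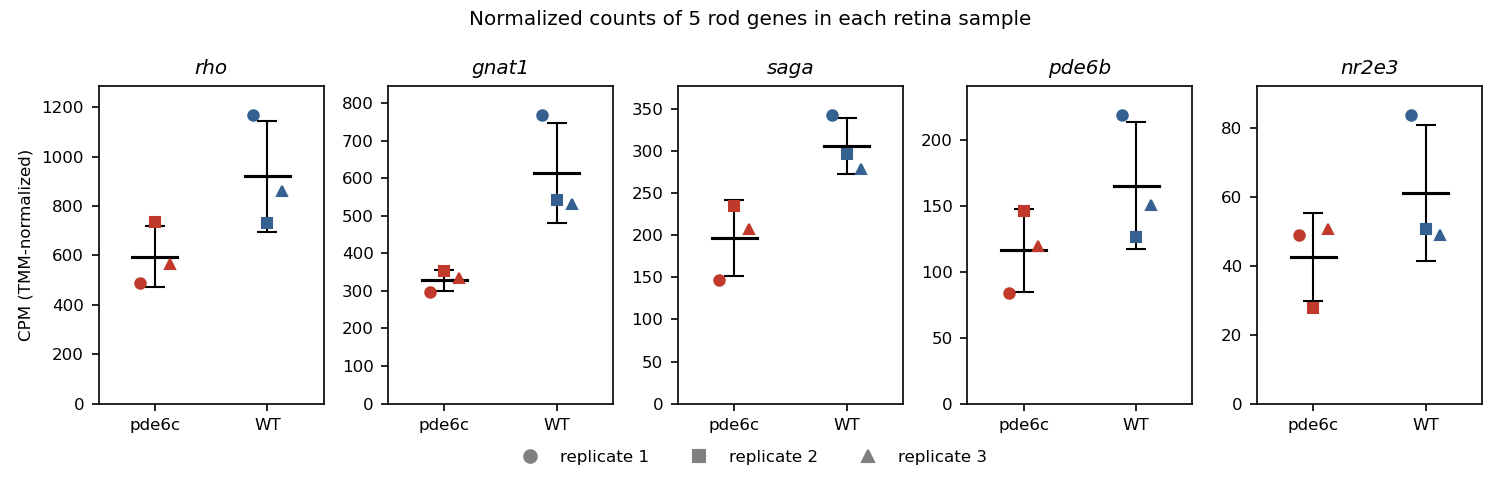
TMM-normalized CPM of the 5 rod genes in each sample, with *pde6c* left of WT in each panel; points are samples, the bar is the mean and the whiskers are the SD of 3 samples. The genotypes are apart for *gnat1* (298 to 353 CPM in *pde6c*, 531 to 768 CPM in WT) and *saga*, and overlap for *rho*, *pde6b* and *nr2e3*.

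Thus 3 of the 5 genes were called, all of them lower in *pde6c*, where 2.29% of the 17242 genes tested were called lower, 1.4% higher and 3.69% in either direction. Among the 5759 genes for which edgeR's own average log2 CPM was at least 5, as it was for the 5 rod genes, 5.16% were called lower. The log2 fold changes of the 5 genes had a median of -0.63 and those of all genes tested a median of 0.00. By fold change alone, 1088 genes (6.31% of those tested) had a lower value than *gnat1*, and for *pde6b* this share was 14.6%. This ranking takes genes of all levels together and leaves out the error of each fold change. CPM did not overlap and were lower in *pde6c* for 8.75% of all genes tested and for 2 of the 5 genes, *gnat1* and *saga*. Summed over the 5 genes, the level was between 1067 and 1496 CPM in *pde6c* and between 1748 and 2584 CPM in WT. In whole retinas, fewer rods and less of each transcript per rod cannot be told apart from these values. The study's background cites earlier work on this line in which rods already looked abnormal at the age sampled here. By the same background, rod number was still comparable to WT at this age, and rods were lost later. Rods were not counted in these samples, and their number was not tested.

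The calls of *rho* and *saga* were lost when some single libraries were left out, and that of *gnat1* was not. WR1 was the highest library for all 5 genes, and PR1 was the lowest for every one but *nr2e3*, for which it was PR2. *gnat1* was called in all 6 edgeR fits that leave out 1 library, with log2 fold changes between -0.99 and -0.70. *rho* was called in 2 of the 6 fits. Its call was lost without PR1 (log2 fold change -0.49, edgeR adjusted p = 0.295), PR3 (-0.58, adjusted p = 0.328), WR1 (-0.41, adjusted p = 0.337) or WR3 (-0.66, adjusted p = 0.183). *saga* was called in 1 of the 6 fits, that without PR2 (-0.79, edgeR adjusted p = 0.0568), and its log2 fold change was between -0.79 and -0.46. In these 6 fits, between 2.33% and 3.04% of all genes tested were called, against 3.69% with all 6 libraries. Whether a lost call came from the library left out or from the smaller number of samples was not tested. Without WR1, the log2 fold change was -0.24 for *pde6b* and -0.22 for *nr2e3*.

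**Figure D2:**
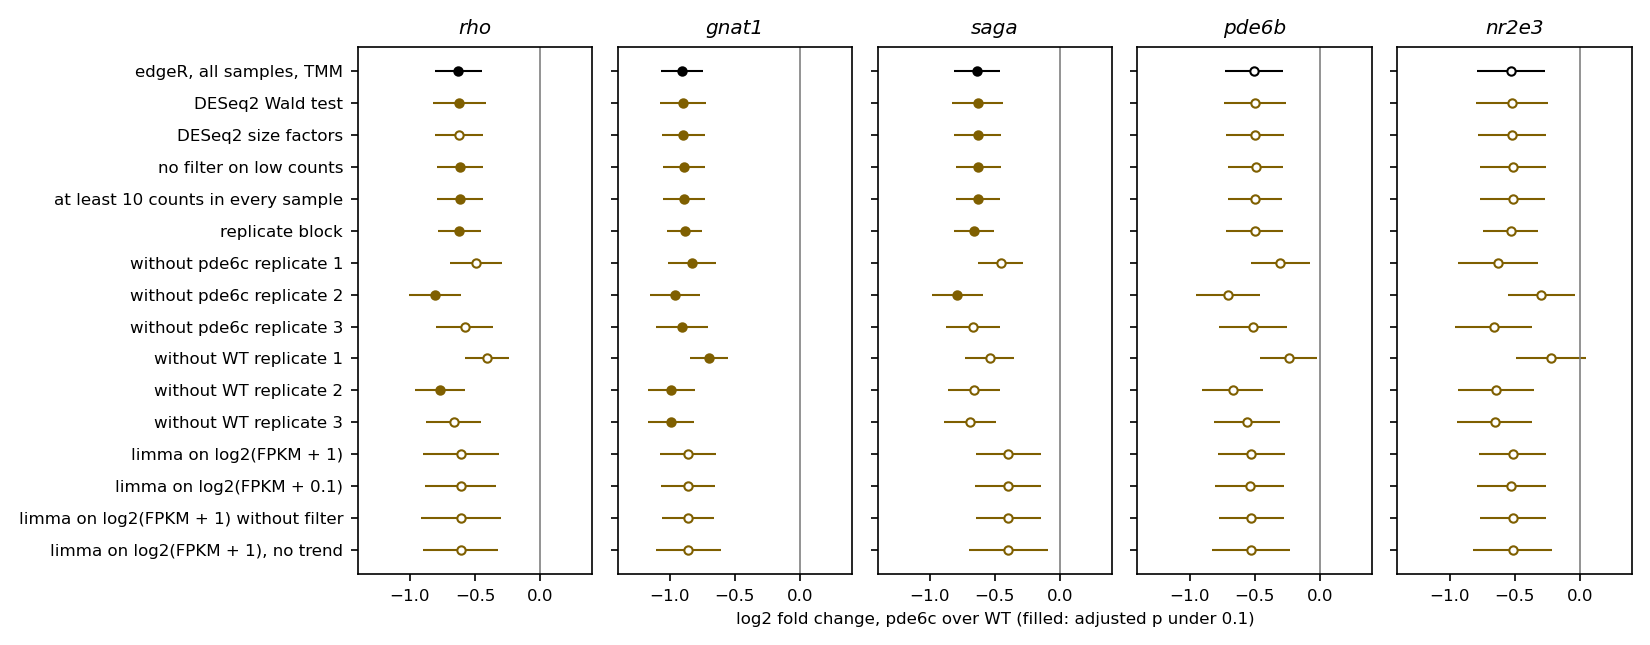
Log2 fold change (*pde6c* over WT) of each rod gene under each fit, with bars of 1 standard error and filled points for an adjusted p under 0.1. All points lie below 0; *gnat1* is filled in every edgeR and DESeq2 fit, *pde6b* and *nr2e3* in none, and no gene is filled in the limma fits on FPKM.

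FPKM, the authors' values per kilobase of transcript, allow the levels of the 5 genes to be set in order. *rho* averaged 1126 ± 283 FPKM in *pde6c* and 1693 ± 233 FPKM in WT (SD, n = 3 each). Next came *gnat1* with 379 ± 59.9 FPKM in *pde6c* and 685 ± 68.9 FPKM in WT, and then *saga* with 117 ± 35.9 FPKM in *pde6c* and 149 ± 11.1 FPKM in WT. *nr2e3* had 46.3 ± 14.1 FPKM in *pde6c* and 65.2 ± 10.8 FPKM in WT, and *pde6b* had 33.2 ± 8.69 FPKM in *pde6c* and 47.7 ± 9.06 FPKM in WT. The order was the same in both genotypes. The ranges of neighbouring genes were apart down to *nr2e3*, whereas those of *nr2e3* and *pde6b* overlapped in both genotypes. Rhodopsin RNA was thus 2.97 times as abundant per length as that of rod transducin in *pde6c*, and 2.47 times in WT. When CPM was divided by the length of the gene span, which includes introns, *nr2e3* and *saga* changed places in both genotypes.

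The FPKM and the CPM both held the genotypes apart for *gnat1*, but they differed for *rho*, *pde6b* and *saga*. *rho* was listed at 827, 1390.1 and 1161 FPKM in the *pde6c* samples and at 1896, 1439 and 1742 FPKM in the WT samples, without overlap. *gnat1* had 310.2, 409 and 418 FPKM in *pde6c* and 764, 646 and 644 FPKM in WT. *pde6b* was apart by a small gap, with 23.4, 40.0 and 36.3 FPKM in *pde6c* against 57.8, 40.2 and 45.1 FPKM in WT. *saga*, which the counts held apart, overlapped at 76.6, 146 and 127 FPKM in *pde6c* and 159, 150.3 and 137 FPKM in WT. *nr2e3* had 45.7, 32.5 and 60.7 FPKM in *pde6c* and 77.3, 61.7 and 56.5 FPKM in WT. FPKM were lower without overlap for 8.47% of the genes with at least 1 FPKM in 3 libraries, and none of the 5 rod genes passed limma's test on log2(FPKM + 1), which called 1.3% of these genes. Of the genes called from counts, limma gave an adjusted p of 0.154 for *gnat1*, 0.541 for *rho* and 0.675 for *saga*.

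The 4 genes of the cascade varied together over the 6 samples, and *nr2e3* followed them less closely. Pearson's r of log2 CPM was between 0.83 (*gnat1* with *pde6b*) and 0.96 (*rho* with *pde6b*) among *rho*, *gnat1*, *saga* and *pde6b*. With *nr2e3* it was between 0.37 and 0.66. The samples share their genotype and their library with every gene, so these values are a description. PR1 and WR1 were the samples farthest from the median for each of the 4 cascade genes. Without them, r was 0.73 for *rho* with *gnat1* and 0.84 for *rho* with *pde6b*. It was 0.26 for *gnat1* with *pde6b* and 0.33 for *saga* with *pde6b*, so these last pairs rest on PR1 and WR1. Without PR1 and WR1, *nr2e3* had r of -0.14 with *rho*, 0.48 with *gnat1*, 0.27 with *saga* and -0.52 with *pde6b*. These values keep PR2, the lowest sample for *nr2e3*.

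**Figure D3:**
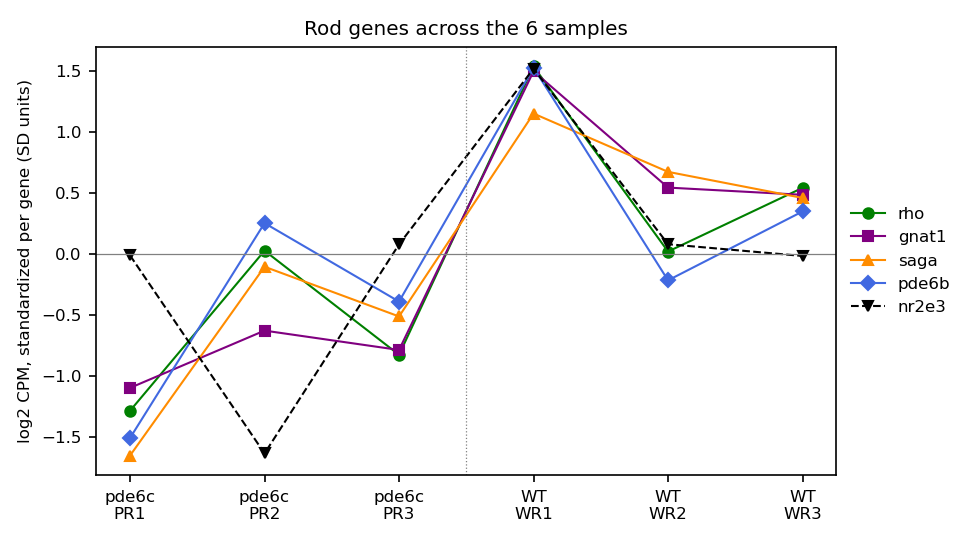
Log2 CPM of the 5 rod genes in the 6 samples, each gene standardized to its own mean and SD, with the *pde6c* samples left of the WT samples. The 4 cascade genes are lowest in PR1 and all 5 genes are highest in WR1, whereas *nr2e3* (dashed) is lowest in PR2.

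The genes whose pattern over the 6 samples was most like the mean of these 4 were *gramd1a* (r = 0.973), ABTB1 (0.969), LRIT1 (0.968), *cngb1a* (0.968) and KDSR (0.967), out of 5639 other genes whose log2 CPM averaged at least 5 over the 6 samples. In all, 10 of these genes had r of at least 0.95. Of the named ones, *cngb1a* encodes the beta subunit of the rod channel and stands on the list of other rod genes. LRIT1, a photoreceptor membrane protein in mouse, had 25.5, 37.5 and 29.9 CPM in *pde6c* and 83.0, 56.8 and 62.8 CPM in WT and was called lower (log2 fold change -1.13, SE 0.22, edgeR adjusted p = 0.00797). The other 4 were not called.

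A list of other rod genes (opsin relatives, transducin beta subunits, phosphodiesterase, channel, arrestin, kinase, exchanger, disc rim and *nrl*) matched 16 identifiers, of which 14 were in the count table and 11 had counts to test. Whether each gene of the list is expressed in rods alone was not tested. None of the 11 was called by edgeR in either direction, where 3.69% of all genes tested were. Their log2 fold changes were below 0 for 10 of 11, where 49.7% of all genes tested were below 0, and had a median of -0.43. *cngb1a* had 29.1, 45.5 and 32.4 CPM in *pde6c* and 65.5, 46.9 and 56.6 CPM in WT (log2 fold change -0.66, SE 0.23, edgeR adjusted p = 0.184). *rom1a*, a structural protein of the disc rim, had 60.9, 100.3 and 63.1 CPM in *pde6c* and 120.5, 118 and 114 CPM in WT (-0.65, SE 0.20, adjusted p = 0.112). These were the 2 of the list with an unadjusted p under 0.05 in edgeR, as 2067 of all 17242 genes tested had. DESeq2's Wald test, which called 5.88% of all genes, called both (adjusted p = 0.0964 for *cngb1a* and 0.0578 for *rom1a*).

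The second rod arrestin of zebrafish, *sagb*, was the one gene of this list with a log2 fold change above 0, at 0.18 with a standard error of 0.16 (edgeR adjusted p = 0.769). It had 182, 236 and 240.1 CPM in *pde6c* and 225, 177 and 181 CPM in WT. The most abundant gene of the list by CPM, *gnb1b*, a transducin beta subunit, had 348, 497 and 491 CPM in *pde6c* and 459.8, 519.9 and 446 CPM in WT, and the genotypes overlapped. PDE6G, an inhibitory subunit of the phosphodiesterase, had 93.2, 80.3 and 83.0 CPM in *pde6c* and 202, 66.5 and 96.7 CPM in WT (log2 fold change -0.51, edgeR adjusted p = 0.537). It was high in WR1 alone. *nrl*, a transcription factor that in mouse directs cells to the rod fate, was low, at 2.53 to 4.16 CPM in *pde6c* and 1.86 to 7.38 CPM in WT, and was not called (log2 fold change -0.39, SE 0.60, edgeR adjusted p = 0.880). A further 3 genes (*gnb1a*, GRK1 and ROM1) overlapped a neighbour and had no count. Of these, *gnb1a* was listed at 241, 284 and 344 FPKM in *pde6c* and 487, 441 and 542 FPKM in WT. GRK1 was listed at 38.7, 43.9 and 50.0 FPKM in *pde6c* and 55.4, 76.1 and 53.5 FPKM in WT. ROM1 overlapped between genotypes, at 92.5, 102 and 107 FPKM in *pde6c* and 185, 99.2 and 122 FPKM in WT.

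**Figure D4:**
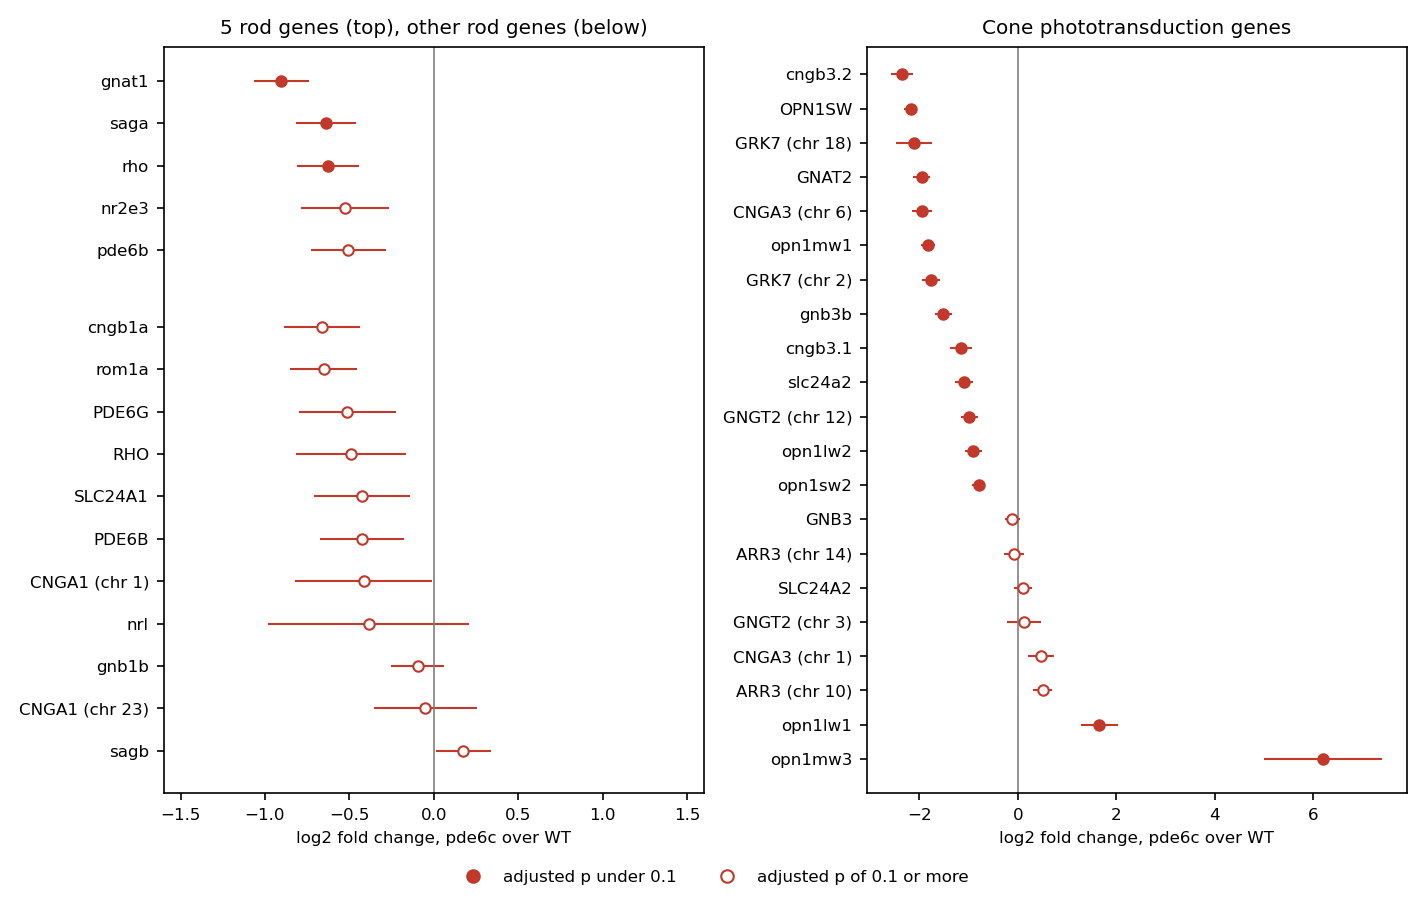
Log2 fold change (*pde6c* over WT) with bars of 1 standard error for the 5 rod genes and 11 other rod genes (left) and 21 cone phototransduction genes (right); filled points have an edgeR adjusted p under 0.1, and the axes differ in scale. *gnat1*, *saga* and *rho* are the filled rod genes, and 13 cone genes are filled below 0 and 2 above.

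Most of the cone list was called. Of 21 cone phototransduction genes tested, 13 were called lower and 2 higher, with a median log2 fold change of -0.98. Of all genes tested, 2.29% were called lower and 1.4% higher. Of 39 genes tested from a list taken as shared by rods and cones or acting upstream of them, 15 were called lower and 2 higher. Their median was -0.51. Whether each gene of this shared list is expressed in rods, in cones or in both was not tested. Whether rod and cone genes differed in their change was tested as the log2 ratio of a rod gene to its cone counterpart within each library, which needs no scaling between libraries. With 3 samples against 3, the smallest p of the exact two-sided permutation test is 0.1, so no ratio could pass the threshold of a p under 0.1, and the differences below are given as sizes with whether the genotypes overlapped. In all, 4 such ratios were tested, and each Benjamini-Hochberg adjusted p was also 0.1.

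Rod transducin gave 22.0%, 21.9% and 29.5% of the summed *gnat1* and *gnat2* counts in PR1, PR2 and PR3, against 14.1%, 12.1% and 13.3% in WR1, WR2 and WR3. The log2 ratio of *gnat1* to *gnat2* was 1.08 higher in *pde6c*, and the genotypes did not overlap (exact permutation p = 0.1). *gnat2* itself averaged 1037 ± 234 CPM in *pde6c* and 4020 ± 611 CPM in WT (log2 fold change -1.95, SE 0.17, edgeR adjusted p = 3.75e-06). In these samples the share of the rod gene was higher in *pde6c* while its level was lower.

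Rhodopsin gave 7.63%, 8.39% and 8.33% of the summed counts of *rho* and the cone opsins in *pde6c*, against 6.06%, 3.55% and 4.79% in WT. The log2 ratio was 0.84 higher in *pde6c* without overlap (exact permutation p = 0.1). It was 0.52 higher when OPN1SW, the cone opsin with most counts in WT, was left out of the sum, an alternative added after seeing the data. The sum lacks *opn1mw2*, which had no count and overlaps *opn1mw1*. *opn1mw1* is in the sum, without the fragments that lie on both genes. In FPKM, where *opn1mw2* is included, the ratio was 0.64 higher. There *opn1mw2* was listed at 1201, 1671 and 1717 FPKM in *pde6c*, against 88.8, 90.1 and 91.1 FPKM in WT. Its part in the smaller FPKM ratio was not tested.

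For the phosphodiesterases the ratio could only be taken from FPKM, and *pde6b* to *pde6c* was 2.03 higher in *pde6c* on the log2 scale, without overlap (exact permutation p = 0.1). The denominator is the mutated gene itself. The arrestins gave a ratio of opposite sign. *saga* gave 15.0%, 17.7% and 23.3% of the summed counts of *saga* and the genes named ARR3 in *pde6c*, against 31.4%, 27.3% and 33.9% in WT. The log2 ratio of *saga* to ARR3 differed by -0.98, at -2.15 ± 0.40 in *pde6c* and -1.17 ± 0.23 in WT (exact permutation p = 0.1), and neither ARR3 gene was called on its own (log2 fold changes 0.51 and -0.07, edgeR adjusted p = 0.250 and 0.943). With each ARR3 gene alone in the denominator, which was added after seeing the data, the differences were -1.16 and -0.61.

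**Figure D5:**
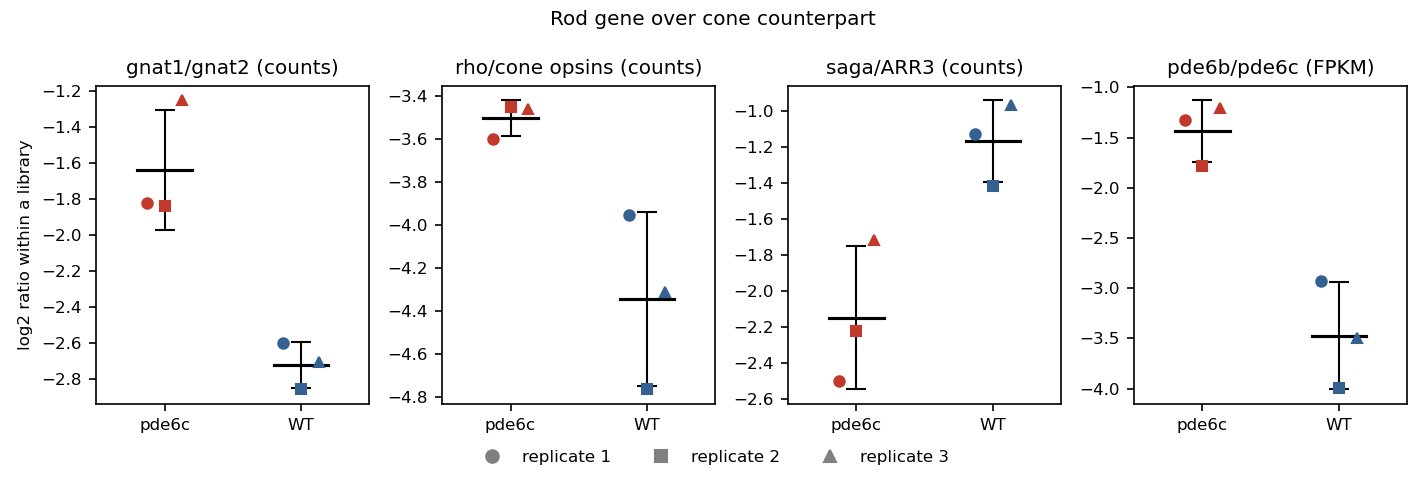
Log2 ratio of a rod gene to its cone counterpart within each library, from counts for *gnat1*, *rho* and *saga* and from FPKM for *pde6b*, with *pde6c* left of WT; points are samples, the bar is the mean and the whiskers the SD of 3 samples. The *pde6c* samples lie above the WT samples in all panels but *saga*/ARR3, where they lie below.

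Within the rod genes themselves, the ratio to *rho* was compared in the same way. *gnat1* to *rho* was -0.84 ± 0.18 in *pde6c* and -0.58 ± 0.13 in WT on the log2 scale, a difference of -0.27 without overlap (exact permutation p = 0.1, adjusted p = 0.4 over 4 ratios). For *saga*, *pde6b* and *nr2e3* the genotypes overlapped, with differences of -0.04, 0.12 and 0.09 and exact permutation p of 0.8, 0.4 and 1.

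For the lists of the other retinal cells, the calls below stand beside the 3.69% of all genes tested that edgeR called in either direction. Whether each gene of these lists is expressed in the named cell type alone was not tested. Over all genes, 2067 of the 17242 tested had an unadjusted p under 0.05 in edgeR, which is the background for the counts below. None of 11 amacrine and 9 ganglion cell genes tested was called by edgeR (0 and 1 with an unadjusted p under 0.05). Of 12 bipolar genes, *cabp5a* was called higher (2 with an unadjusted p under 0.05), and the list had a median log2 fold change of 0.00. Of 11 Muller glia genes, 1 of the 2 genes named SLC1A2 was called lower (log2 fold change -2.74, against 0.06 for the other). Only 4 of these 11 were below 0, the median was 0.35, and 5 had an unadjusted p under 0.05, among them both genes named GLUL (0.44 and 0.65, edgeR adjusted p = 0.398 and 0.110), which encode glutamine synthetase. The summed Muller glia level was between 1045 and 1334 CPM in *pde6c* and between 1122 and 1462 CPM in WT. The summed bipolar level was between 2571 and 2742 CPM in *pde6c* and between 2528 and 2721 CPM in WT, and the amacrine sum between 2771 and 3189 CPM in *pde6c* and between 2679 and 2924 CPM in WT. Markers of tissue outside the neural retina were low. The pigment epithelium list summed to between 37.3 and 46.8 CPM in *pde6c* and between 38.1 and 50.5 CPM in WT, and the lens list to between 3.04 and 6.27 CPM in *pde6c* and between 5.61 and 9.05 CPM in WT. The cone list, in contrast, summed to between 9179 and 12350.0 CPM in *pde6c* and between 25031 and 29029 CPM in WT. Its part in the normalized levels of the rod genes was not tested.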

How the data were processed

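Per the submitters' processing notes and the study's methods, the authors aligned the reads with STAR 2.5.3a to GRCz10 and counted fragments per gene with featureCounts 1.5.2; these raw counts were deposited. Per the file header, counting took the whole span of a gene, ignored strand and left out fragments on more than 1 gene. In all, 3931 genes had no count; 2593 of them overlap another gene, and 689 had at least 1 FPKM in all 6 libraries. The authors also deposited FPKM from Cufflinks 2.2.1.

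Counts were tested with edgeR 4.0.16 in R 4.3.3 (filterByExpr, TMM, quasi-likelihood test, Benjamini-Hochberg over 17242 genes, the study's threshold of an adjusted p under 0.1), after a check on simulated data. FPKM were tested with limma 3.58.1 on log2(FPKM + 1), a scale that understates changes of low genes; its variance trend was kept after the number of calls with and without it had been seen. The study itself tested its counts with DESeq2's Wald test. Here DESeq2 1.42.0 was an alternative, as were other filters, a replicate block, a threshold of 0.05 and leaving out each library. Permutation tests used scipy 1.17.1 and a pseudocount of 0.5 counts. Because *pde6c* had no count, its ratio used FPKM (pseudocount 1), and both ARR3 genes were summed because their copies share a name; both differ from the plan. A count of 3, the smallest level considered, was at most 0.169 CPM and covers counting error only.

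Total counts per sample were between 18757605 and 22510222. Genotypes came from the sample labels, and p-values set the difference between genotypes against the spread between these pools. Replicates differed by more than sampling noise (chi-square per degree of freedom between 29.8 and 42.3). The 5 genes and all lists were chosen with earlier results of these data known. The genes to be named were the 5 rod genes, *pde6c* and *gnat2*, and the 5 genes with the most similar pattern. From the rod, shared and cone lists, called genes were to be named, and otherwise the 3 most abundant of a list. *nrl*, *rom1a*, *gnb1a*, GRK1, ROM1, ARR3, *opn1mw2*, *cabp5a*, SLC1A2 and GLUL were named after their values were seen. A reference table named 22595 of the counted genes, with one upper case name for several copies. Microglia, blood and muscle lists summed to at most 29.7, 0.84 and 12.7 CPM. Sequences were not analysed here.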

Additional observations from a re-analysis of the deposited data

How the results depend on the processing

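All 5 rod genes kept a log2 fold change below 0 in every refit (other edgeR settings, DESeq2, the 6 fits without 1 library and limma on FPKM, where 3 of the settings share their fold changes). *gnat1*, *saga* and *rho* stayed called without a filter, with 10 counts or more in each library, with the replicate block and with DESeq2's Wald test. DESeq2's Wald test gave an adjusted p of 0.0513 for *rho* and 0.0296 for *saga*. These fits called between 3.17% and 5.88% of all genes tested. With DESeq2's size factors *rho* (-0.62) had an edgeR adjusted p of 0.105, and at a threshold of 0.05 *rho* (-0.63) and *saga* (-0.64) were lost, leaving 1 of the 5. DESeq2's Wald test called 1081 genes, 500 of them higher, and 2 genes of the other rod list (*cngb1a* and *rom1a*); requiring 10 counts or more in each library added 1 gene of that list (*rom1a*). limma on FPKM called none of the 5 under any setting (*rho* -0.61, *gnat1* -0.86, *saga* -0.40): it called 205 genes (80 higher, 125 lower) with a pseudocount of 1, 181 (67 higher, 114 lower) with 0.1, 64 (22 higher, 42 lower) without a filter, and 156 (80 higher, 76 lower) without the variance trend, a setting added after seeing the data. The cause was not tested. Deviations from the genotype means correlated weakly between samples of the same replicate number (0.09, 0.04 and 0.04). Between samples of different numbers these correlations lay between -0.05 and -0.00065, so each sample correlated best with its own number. Deviations of a gene sum to 0 within a genotype, so a positive correlation with its own number pushes the other correlations of a sample below 0. Whether the numbers mark a pairing was not tested. With the replicate block 984 genes were called, 393 of them higher, and *rom1a* joined the calls (1 gene of the other rod list). Leaving out 1 library gave log2 fold changes of -0.81 to -0.41 for *rho*, -0.99 to -0.70 for *gnat1*, -0.79 to -0.46 for *saga*, -0.71 to -0.24 for *pde6b* and -0.66 to -0.22 for *nr2e3*, 1 to 3 of the 5 genes called, 414 to 537 genes called (164 to 234 higher, 246 to 311 lower), and 0 to 2 genes of the other rod list. The log2 ratios then lay between 0.89 and 1.18 for *gnat1*/*gnat2*, 0.63 and 1.04 for *rho*/cone opsins, -1.19 and -0.80 for *saga*/ARR3 and 1.77 and 2.31 for *pde6b*/*pde6c*. By CPM per kilobase of gene span *nr2e3* ranked 3 and *saga* 4 in both genotypes. Each of the 5 genes had at least 594 counts in every library.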
